A study of Mus musculus with 8 samples.

Results

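Stalk mesenchyme that had been cultured with Wnt1 was compared with stalk mesenchyme that had not been cultured. The comparison used 4 of the series' 8 arrays, chosen by their labels: 2 of stalk kept in culture for 12 h with 400 ng/ml Wnt1 protein, and 2 of stalk whose RNA was taken straight after dissection. All 4 samples were microdissected lung mesenchyme of CD1 mouse embryos between E11.5 and E12.5, and neither group carried a genetic change. The cultured pieces lay on tissue culture plastic in growth medium. Of the remaining arrays, 2 were of stalk in the same medium and time without Wnt1, called the control culture here, and 2 were of uncultured branch tips, which were not used. Culture and Wnt1 changed together between the groups compared, so they cannot be told apart in this comparison. The control culture values are given for some of the genes named and not for all. The labels do not say whether the 2 replicates of a group came from separate embryos or litters. The p-values therefore cover the spread between duplicate arrays, and that spread may be technical.

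The mesenchyme of the embryonic lung is the connective tissue around the branching airway tubes. It gives rise to airway and vascular smooth muscle and to fibroblasts, and it exchanges Wnt, hedgehog, Fgf and Bmp signals with the epithelium. Wnt1 is a secreted ligand that binds Frizzled receptors with an Lrp co-receptor and stabilises beta-catenin, which acts with Lef and Tcf factors on target genes such as Axin2. Hedgehog protein comes from the lung epithelium and acts on the mesenchyme, where Ptch1 is its receptor and Gli1 its usual readout.

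The arrays gave 1 MAS5 signal per probe set, an intensity scaled so that the trimmed mean was 500 on every array. The medians were 95.2 and 76.2 on the fresh arrays and 295.3 and 149 on the Wnt1 culture arrays, replicates 1 and 2. The ratio of 3' to 5' probe signal for Actb, which rises with RNA breakage and short amplified product, was 4.52 and 2.02 in fresh stalk and 21.2 and 6.81 in Wnt1 culture. Hybridisation controls, transcripts added in fixed amounts, averaged 7418 and 3684 in fresh stalk and 56420 and 19890 in Wnt1 culture. The fresh replicates correlated at 0.972 across genes and the Wnt1 culture replicates at 0.849, on the log2 scale. These measures moved with the groups, and their part in the results was not tested. As these are bulk samples, fewer cells of a type and less RNA per cell cannot be told apart.

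The tissue label was set against marker genes. Mesenchymal transcription factors were well measured in every array, Tcf21 at 2394 and 2659 in fresh stalk and 1601 and 1251 in Wnt1 culture, and Tbx4 at 3432 and 4304 against 1013 and 1183. Of the epithelial markers, Nkx2-1 was at 57.7 and 7.65 in fresh stalk and 714 and 86.8 in Wnt1 culture, and Cdh1 at 47.8 and 65.8 against 21.2 and 13.9. The endothelial marker Pecam1 was under the filter on dim signal, with all 4 values between 59.3 and 112.

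Wnt1-cultured stalk differed from fresh stalk in 3114 of 13741 genes tested, at an adjusted p under 0.05 by limma. Of these, 1788 were higher after culture, which is 13.0% of all genes tested, and 1326 were lower, which is 9.65%. The median log2 fold change of all genes was 0.15, and fold changes are of log2(signal + 44), which understates the change of dim genes. Changes of 4-fold or more were called in 974 higher and 313 lower genes, and of 8-fold or more in 74 and 32. Both Wnt1 arrays lay above 295.3, the highest of the 4 array medians, in 732 of the 1788 higher genes. Both fresh arrays lay above it in 1285 of the 1326 lower genes. The fall was thus called mostly in well measured genes and the rise mostly in dim ones. The filter on dim signal, above 96.4 on at least 2 of the 4 arrays, admits a gene through 1 group alone. Among the genes named below, Lgals3, Ankrd1, Clec4d, Tbc1d9b, Wnt4, Gpnmb and Cdkn2b passed it only through the Wnt1 arrays. So did Lgr5, Lmod1, Tnc, Col12a1, Mmp3, Chac1, Arg1, Ccl9, Cxcl14, Il11, Acan, Cnmd, Elavl3, Aldh1a1, S100a3, S100a4, S100a8 and S100a9. Adamts20, Klhl4, Cd34, Hemgn, Sox18, Lama4, Hapln1 and Sox9 passed it only through the fresh arrays. In all such genes the filter fixed the direction of the change. Without the filter 463 of 18193 genes were higher and 816 lower, so 36.2% of calls were higher.

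The count of calls depended on single arrays and on the scaling. It was 154 without fresh replicate 1, 112 without fresh replicate 2, 5614 without Wnt1 replicate 1 and 7982 without Wnt1 replicate 2. Quantile normalization gave 144 higher and 174 lower genes, 284 of which were also called on the deposited scale. Scaling each array to the same median gave 888 higher and 4128 lower, so that 17.7% of calls were higher, against 57.4% on the deposited scale. With that scaling the median of all genes was -1.03. Of 133 calls in genes named by rule, 59 were kept under quantile normalization, 48 and 43 with fresh replicate 1 and 2 left out, and 133 with either Wnt1 replicate left out. In these fits the lone array is assumed to vary like the pair of the other group. Without a Wnt1 array the spread is that of the close fresh pair, so keeping all 133 says nothing about their stability.

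**Figure D1:**
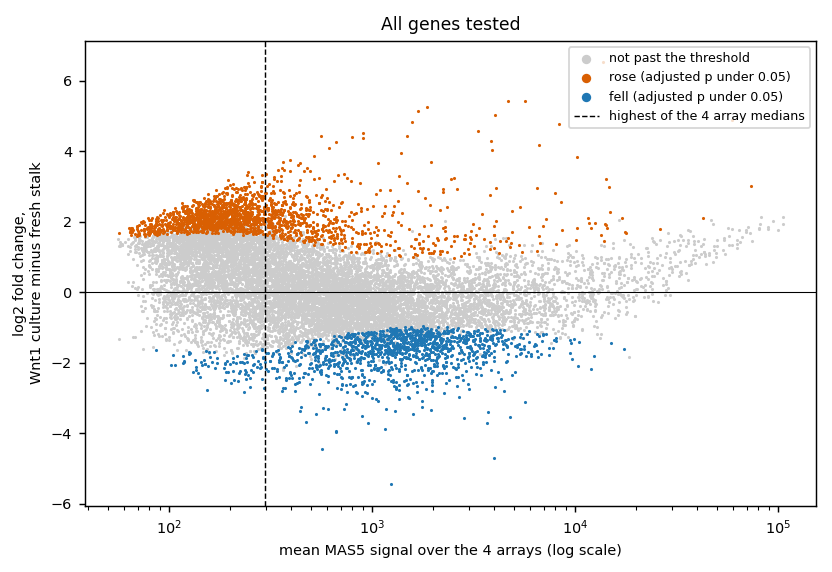
Log2 fold change of each of the 13741 genes tested (y axis, Wnt1 culture minus fresh stalk) against its mean MAS5 signal over the 4 arrays (x axis, log scale), with genes past the threshold in colour and the highest of the 4 array medians, 295.3, as a dashed line. Most orange points, the higher genes, lie near or left of the line, and most blue points, the lower genes, lie right of it.

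The largest changes were ranked among called genes whose groups did not overlap and whose higher group had both arrays above that median. The largest rises were in Tagln, S100a6, Bzw2, Lgals3, Ankrd1, Anxa1, Acta2, Actg2, Actc1, Tbc1d9b, Tnfrsf12a and Clec4d. Tagln, an actin-binding protein of smooth muscle, had signals of 189 and 232 in fresh stalk and 13440 and 41330 in Wnt1 culture. Its log2 fold change was 6.54 ± 0.46 (SE, n = 2 per group, adjusted p = 0.00014), and the control culture arrays stood at 12300 and 9306. All 4 cultured arrays were thus far above both fresh ones.

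S100a6, a calcium-binding protein, went from 139 and 187 to 4360 and 17980, a change of 5.43 ± 0.54 (adjusted p = 0.00046). Anxa1, an annexin that binds phospholipid, was at 155 and 189 in fresh stalk and 4251 and 11500 in Wnt1 culture (5.03 ± 0.45, adjusted p = 0.00027). Ankrd1, a nuclear protein induced by mechanical load, was at 34 and 50.6 against 1853 and 4806 (5.14 ± 0.52, adjusted p = 0.00051). That the groups do not overlap was a condition for choosing these genes. In each of them Wnt1 replicate 2 was above replicate 1. The control culture was at 4755 and 3547 for S100a6, 2833 and 3321 for Anxa1 and 1921 and 1883 for Ankrd1.

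The galectin Lgals3 was at 72.0 and 1.84 in fresh stalk and 1180 and 6224 in Wnt1 culture (5.25 ± 0.72). The Tweak receptor gene Tnfrsf12a was at 8.45 and 202 against 1291 and 4472 (4.43 ± 0.72), and the C-type lectin gene Clec4d at 25.3 and 12.2 against 652 and 2510 (4.42 ± 0.65). Their fresh values were all below the highest array median, where the order of values carries little. The calls of Tnfrsf12a and Clec4d were lost under quantile normalization. In the control culture Lgals3 was at 1612 and 2313, Tnfrsf12a at 152 and 1188 and Clec4d at 1539 and 1809. Tnfrsf12a in control replicate 1 was thus below fresh replicate 2.

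For 2 of the 12 largest rises the probe sets of the gene disagreed. Bzw2 rose on the probe set used (158 and 108 against 14600 and 3842, 5.43 ± 0.53), while its other probe sets had changes of -0.58 and -0.13. Tbc1d9b likewise had 4.53 ± 0.70 on the probe set used and -1.48 and 0.75 on the others. These rises are therefore those of single probe sets. Over all genes called, 1384 had further probe sets, and in 790 of them (57.1%) every probe set changed in the same direction. Such disagreement is given below for some genes and not for all.

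The 12 largest falls were in Adamts20, Aplnr, Klhl4, Cd34, Hemgn, Tgfbr3, Xist, Sox17, Sox18, Adh1, Ptch1 and Tmem204. Adamts20, a secreted metalloprotease, was at 2671 and 2267 in fresh stalk and 7.43 and 19.2 in Wnt1 culture (-5.46 ± 0.49, adjusted p = 0.00027). The control culture kept 292 and 535, and the Wnt1 minus control change of -2.95 did not pass the threshold (adjusted p = 0.93). Both Wnt1 arrays were thus at background, below both control arrays.

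Aplnr, the apelin receptor of vascular cells, was at 8923 and 6464 in fresh stalk and 341 and 177 in Wnt1 culture (-4.71 ± 0.38, adjusted p = 0.00025). Adh1, an alcohol dehydrogenase that can oxidise retinol, was at 5183 and 5393 against 483 and 333 (-3.58 ± 0.34, adjusted p = 0.00039). Tgfbr3, the Tgf-beta co-receptor betaglycan, was at 2093 and 2286 against 36.9 and 237 (-3.89 ± 0.55, adjusted p = 0.0037). In each, on the probe set used, the fresh replicates lay close together and the groups were far apart. The other Aplnr probe set was at 558 and 358 in fresh stalk and 253 and 274 in Wnt1 culture (-0.68). On the probe sets used, the control culture was at 495.5 and 1161 for Aplnr, 1182 and 643 for Adh1 and 353 and 368 for Tgfbr3.

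The surface sialomucin Cd34, found on vessels and on blood progenitors, was at 1263 and 1291 in fresh stalk and 15.3 and 78.1 in Wnt1 culture (-3.96 ± 0.54, adjusted p = 0.0030). Hemgn, a nuclear protein of blood cells, was at 1639 and 934 against 14 and 74.7 (-3.95 ± 0.57). Klhl4 fell by 4.45 and Tmem204 fell by 3.51. Both Wnt1 arrays were below the highest array median in all 4 of these genes.

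Xist, the RNA that silences an X chromosome in female cells, was at 7275 and 5972 in fresh stalk, 150 and 1299 in Wnt1 culture and 1477 and 906 in the control culture (-3.70 ± 0.66, adjusted p = 0.0085). The Y-linked Eif2s3y was at 594 and 722 in fresh stalk and 595 and 366 in Wnt1 culture. Both RNAs were above the highest array median on every fresh array, while Xist was below it on Wnt1 replicate 1, and the sex makeup of the samples was not tested. The calls of Xist and Tgfbr3 were lost under quantile normalization, which kept 10 of the 12 largest falls and 9 of the 12 largest rises. Without fresh replicate 1 the calls of Acta2, Hemgn and Sox18 were lost, and without fresh replicate 2 those of Acta2, Sox17 and Tmem204.

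**Figure D2:**
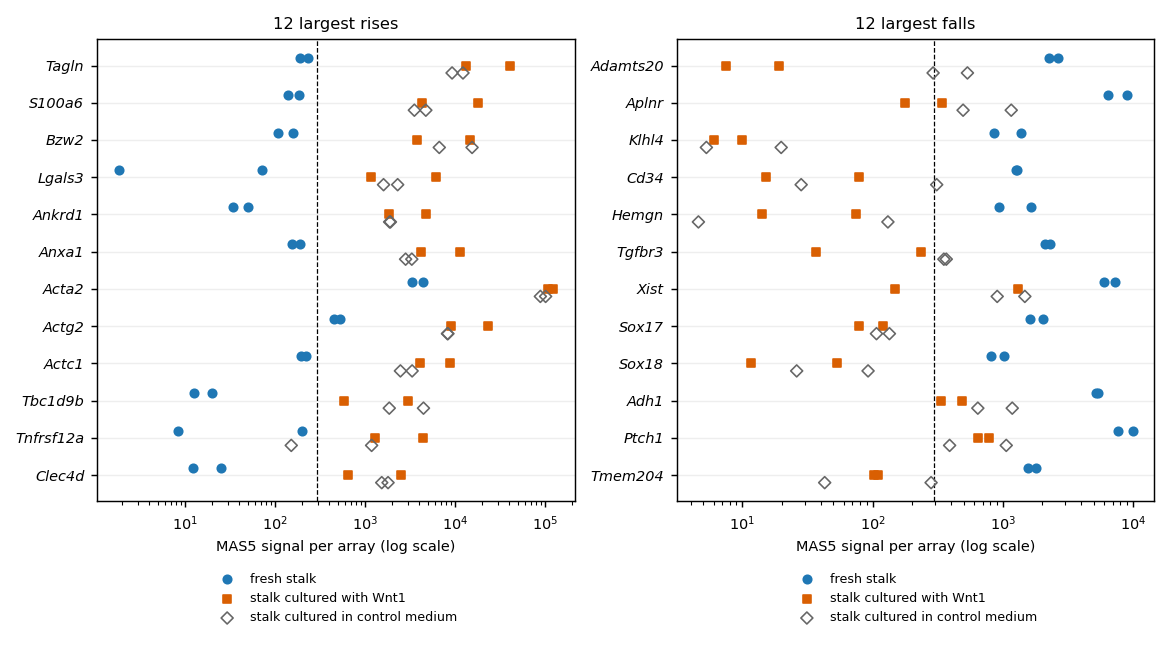
MAS5 signal of every stalk array (x axis, log scale) for the 12 largest rises (left) and the 12 largest falls (right), with fresh stalk as circles, Wnt1 culture as squares, control culture as open diamonds and the highest of the 4 array medians, 295.3, as a dashed line. Squares and circles do not overlap because the genes were chosen so, and the diamonds mostly lie with the squares.

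Smooth muscle contractile genes were higher in Wnt1-cultured stalk. Of 16 tested, 11 rose and 0 fell, against 13.0% of all genes rising, and their median log2 fold change was 2.22 against 0.15 for all genes. Tagln had the largest change, followed by 2 actins. Acta2, the smooth muscle alpha-actin, was at 3321 and 4457 in fresh stalk, 122900 and 107600 in Wnt1 culture and 101800 and 89030 in the control culture. Its change was 4.89 ± 0.56 (adjusted p = 0.0012). Actg2, the enteric smooth muscle actin, went from 456 and 525 to 9150 and 23170 (4.78 ± 0.42, adjusted p = 0.00027). Actc1, the cardiac actin, which stood outside the list, went from 194 and 220 to 4098 and 8742 (4.59 ± 0.40). In all 3 actins the cultured arrays were above the fresh ones with no overlap.

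The actin-binding and regulatory proteins followed. Cnn1, calponin, was at 105 and 136 in fresh stalk and 1774 and 3535 in Wnt1 culture (3.96 ± 0.45, adjusted p = 0.0011). Des, the muscle intermediate filament desmin, was at 278 and 225 against 1752 and 2658 (2.90 ± 0.39, adjusted p = 0.0029). The tropomyosins Tpm2 and Tpm1 rose by 2.98 and 2.30, the light chains Myl9 and Myl6 by 2.81 and 1.74, Cnn2 by 1.83 and the actin nucleator Lmod1 by 2.14. Light chains, tropomyosins and calponins thus rose together with the actins.

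Myh11, the smooth muscle myosin heavy chain and a late marker of the lineage, did not pass (101 and 68.1 in fresh stalk, 319 and 374 in Wnt1 culture, 1.61 ± 0.54, adjusted p = 0.052). Neither did Mylk, the light chain kinase, at -0.22, Cald1 at -0.15, Synpo2 at 0.13 or Smtn at -0.58. The list had 9 rises under quantile normalization, 5 without fresh replicate 1 and 6 without fresh replicate 2. With each array scaled to the same median, 6 rose and 1 fell. The list's median Wnt1 minus control change was 0.33.

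Promoters of these genes are shown because serum response factor, which drives many actin genes, binds a 10-base element called the CArG box. RefSeq promoters of build GRCm38.p6, from 250 bases before to 50 after the gene's start, were matched for 13 of the 16 genes and searched on both strands. The CArG box was present in 3 of them, Cnn2, Myl6 and Myl9, while 1.63% of 32851 RefSeq promoters of that length hold it. Tagln, Acta2, Actg2, Cnn1 and Des were not among the genes found with the box. Genes without a matched promoter were not searched and are not named here, so this does not show that any of them lacks it. Actc1, outside the list and not part of this count, holds the box too. Other genes outside the list are not reported. The promoters of Actc1 (chr2:114052826-114053125, minus strand), Myl9 (chr2:156775214-156775513, plus strand) and Cnn2 (chr10:79988350-79988649, plus strand) follow, with the CArG box in capitals.
Actc1: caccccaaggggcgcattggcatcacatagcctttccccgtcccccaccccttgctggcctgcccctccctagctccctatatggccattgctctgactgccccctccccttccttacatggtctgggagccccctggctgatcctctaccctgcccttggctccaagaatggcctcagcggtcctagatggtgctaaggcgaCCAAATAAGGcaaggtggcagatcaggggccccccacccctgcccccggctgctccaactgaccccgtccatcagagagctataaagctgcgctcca
Myl9: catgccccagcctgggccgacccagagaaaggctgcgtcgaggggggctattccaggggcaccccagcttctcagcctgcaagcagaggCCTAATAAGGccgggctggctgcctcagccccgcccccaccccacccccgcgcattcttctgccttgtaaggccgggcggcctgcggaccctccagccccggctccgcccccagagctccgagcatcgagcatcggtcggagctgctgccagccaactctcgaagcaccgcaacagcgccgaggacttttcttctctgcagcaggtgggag
Cnn2: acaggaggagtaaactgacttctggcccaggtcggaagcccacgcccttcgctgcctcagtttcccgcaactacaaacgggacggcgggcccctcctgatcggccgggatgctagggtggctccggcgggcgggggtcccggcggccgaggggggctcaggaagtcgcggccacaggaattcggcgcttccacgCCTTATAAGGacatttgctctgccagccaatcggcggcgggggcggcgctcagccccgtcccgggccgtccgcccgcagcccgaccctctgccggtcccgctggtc
The box begins 47 bases before the start in Actc1, 161 in Myl9 and 56 in Cnn2. A match describes these letters and not a binding site.

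Of 17 genes of the serum response factor and Yap programmes, 5 rose and 2 fell, against 13.0% and 9.65% of all genes. Ccn2, a secreted matricellular protein, went from 691 and 2333 in fresh stalk to 16240 and 21720 in Wnt1 culture (3.83 ± 0.50, adjusted p = 0.0022), and the control culture was at 9281 and 20170. Besides Ankrd1 and Ccn2, the rises were in Thbs1 (thrombospondin, 2.35), Tgfb1i1 (the focal adhesion protein Hic-5, 1.63) and Fhl2 (1.54). The other Thbs1 probe set was at -0.09. The falls were in Ajuba (-1.5) and Tead1 (-1.24), the latter a DNA-binding partner of Yap. The transcription factor genes Srf (-0.45), Mrtfa (1.35), Mrtfb (-0.73) and Myocd (-0.06) did not pass. The programme's members therefore moved in both directions, with 3 rises and 0 falls under quantile normalization, 2 and 0 without fresh replicate 1, and 3 and 0 without fresh replicate 2.

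The Wnt pathway was read from its ligands through its receptors to its targets. Of 12 ligands, R-spondins and secretion factors tested, 1 rose and 2 fell, which is near the 13.0% and 9.65% of all genes. Wnt2, a ligand of the distal lung mesenchyme, was at 3136 and 4018 in fresh stalk and 436 and 218 in Wnt1 culture (-3.34 ± 0.39, adjusted p = 0.0012), with 1047 and 276 in the control culture. Wnt4 went the other way, from 12.2 and 15.3 to 809 and 619 (3.70 ± 0.54, adjusted p = 0.0039), and stood at 935 and 642 in the control culture. The groups did not overlap for either ligand.

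Rspo2, which strengthens Wnt signalling at the receptor, was at 3904 and 3403 in fresh stalk and 1172 and 1109 in Wnt1 culture (-1.64 ± 0.32, adjusted p = 0.012). A second, dim Rspo2 probe set rose by 2.01, and the mean of both was 0.18. The Rspo2 call was lost under quantile normalization and with either fresh replicate left out. Wnt5a, a ligand of the beta-catenin-independent branch, was at 158 and 113 against 454 and 478, and did not pass (1.52 ± 0.51, adjusted p = 0.053). The transcript of Wnt1 itself was at 57.2 and 12.2 in fresh stalk and 22.4 and 25.4 in Wnt1 culture, all below the highest array median.

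Of 17 Wnt receptors and secreted inhibitors, 2 rose and 7 fell, against 9.65% of all genes falling. Fzd7, a Frizzled receptor, was at 3404 and 3673 in fresh stalk and 586 and 732 in Wnt1 culture (-2.36 ± 0.33, adjusted p = 0.0033). Fzd3 was at 1401 and 1344 against 101 and 129 (-3.16 ± 0.45), and the co-receptor gene Lrp6 at 1280 and 978 against 107 and 46.5 (-3.31 ± 0.51, adjusted p = 0.0044). On these probe sets the groups did not overlap. The other 4 Fzd3 probe sets had changes between -0.37 and 0.50, and the other Lrp6 probe set was at -0.06, so both falls are those of single probe sets. The genes Fzd2, Ror1, Sfrp1 and Sfrp2 fell as well, by 1.71, 1.54, 1.20 and 1.28.

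The 2 rises were in secreted inhibitors. Dkk2 was at 172 and 181 in fresh stalk, 721 and 840 in Wnt1 culture and 285 and 293 in the control culture. Its change against fresh stalk was 1.90 ± 0.46 (adjusted p = 0.021), and its Wnt1 minus control change was 1.30 with an adjusted p of 0.93. Both Wnt1 arrays thus exceeded all 4 other stalk arrays, by a margin that the test over all genes did not call. Sfrp4 rose by 1.95. The counts were 0 rises and 3 falls under quantile normalization, and 0 rises and 1 fall without fresh replicate 1. Without fresh replicate 2 they were 0 and 0.

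Of 16 Wnt targets and feedback genes, 1 rose and 4 fell, against 13.0% and 9.65% of all genes, with a median of -0.39. Axin2, the feedback inhibitor commonly read as the output of the pathway, was at 750 and 821 in fresh stalk, 484 and 261 in Wnt1 culture and 242 and 277 in the control culture. It did not pass against fresh stalk (-1.05 ± 0.44, adjusted p = 0.099), although both Wnt1 arrays were below both fresh ones. Against the control culture its change was 0.40 ± 0.48 (adjusted p = 0.99), and Wnt1 replicate 2 lay within the control values.

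Lef1, a transcription factor partner of beta-catenin, was at 1935 and 1789 in fresh stalk, 657 and 287 in Wnt1 culture and 885 and 602 in the control culture (-1.98 ± 0.42, adjusted p = 0.015). Tnfrsf19, a receptor of the tumour necrosis factor family, was at 2736 and 2665 against 451 and 194 (-3.0 ± 0.41, adjusted p = 0.0030). Ccnd1 and Myc, which also serve the cell cycle, fell by 1.90 and 1.71. All 4 falls were in genes bright in fresh stalk, without overlap on the probe sets used, while the other probe sets of Lef1 and Tnfrsf19 were dimmer and at 0.68 and 0.52.

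Lgr5, an R-spondin receptor, was called higher (41.0 and 3.23 in fresh stalk, 276 and 182 in Wnt1 culture, 2.09 ± 0.57), with all 4 values below the highest array median. The feedback genes Nkd1 (-0.72), Apcdd1 (-0.70), Znrf3 (-0.56), Notum (-0.03) and Sp5 (-0.22) did not pass. Under quantile normalization 0 targets rose and 1 fell, and with either fresh replicate left out the counts were likewise 0 and 1. The Tcf7 gene was not tested.

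**Figure D3:**
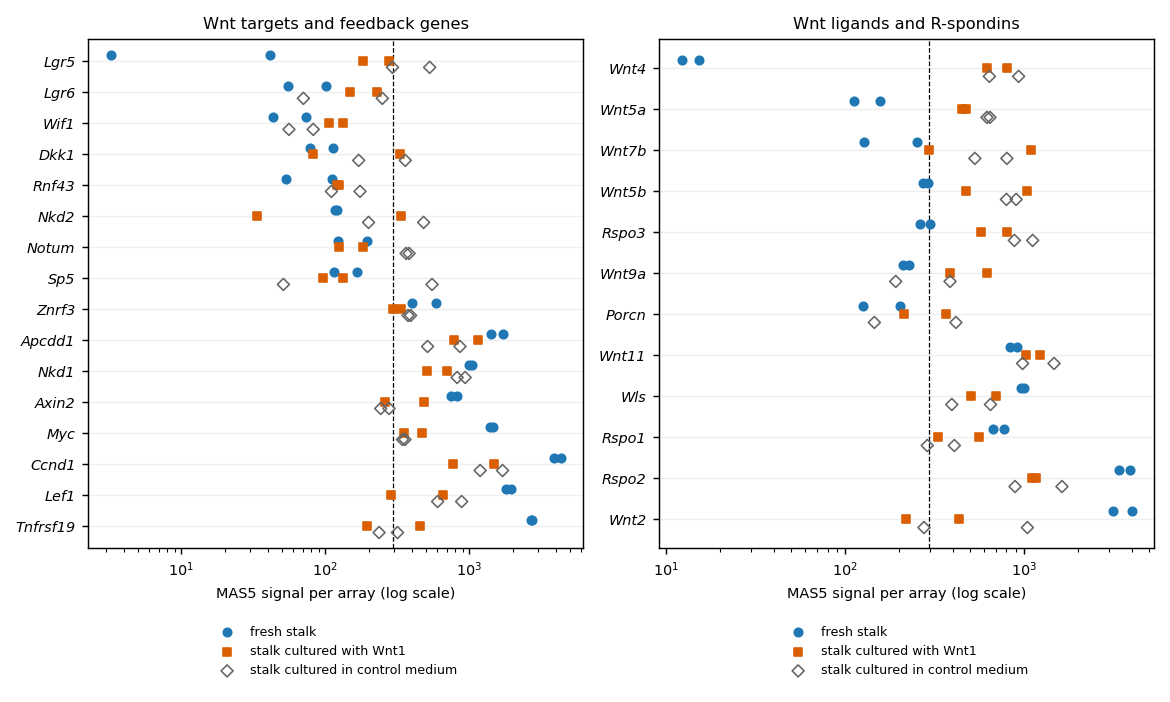
MAS5 signal of every stalk array (x axis, log scale) for 16 Wnt targets and feedback genes (left) and 12 Wnt ligands, R-spondins and secretion factors (right), ordered by log2 fold change, with fresh stalk as circles, Wnt1 culture as squares, control culture as open diamonds and the highest of the 4 array medians, 295.3, as a dashed line. Circles lie right of squares for Tnfrsf19, Lef1, Ccnd1, Myc, Wnt2 and Rspo2, and left of them for Wnt4.

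Hedgehog genes were lower in Wnt1-cultured stalk. Of 10 tested, 0 rose and 5 fell, against 13.0% and 9.65% of all genes, and the median was -0.98. Ptch1, the receptor that hedgehog signalling itself induces, was at 7723 and 9949 in fresh stalk, 778 and 644 in Wnt1 culture and 390 and 1063 in the control culture (-3.55 ± 0.33, adjusted p = 0.00039). Gli1, the transcription factor that follows pathway activity, was at 596 and 933 against 300.1 and 125 (-1.72 ± 0.52, adjusted p = 0.038). Fresh arrays were above cultured ones in both genes.

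Gli2, the main activator, was at 3296 and 3168 in fresh stalk and 202 and 1245 in Wnt1 culture (-2.54 ± 0.59), and Gli3, a repressor in the absence of signal, fell by 1.84. The signal transducer Smo fell by 1.29. Hhip, a hedgehog-binding inhibitor and target, did not pass (-0.68), nor did the co-receptors Gas1 (-0.45), Boc (-0.38) and Cdon (0.02) or the inhibitor Sufu (-0.56). Ptch1 was the single call under quantile normalization, and 2 genes fell with either fresh replicate left out. The Gli motif GACCACCCA was in 0 of 8 promoters matched, searched on both strands, against 0.253% of all RefSeq promoters.

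**Figure D4:**
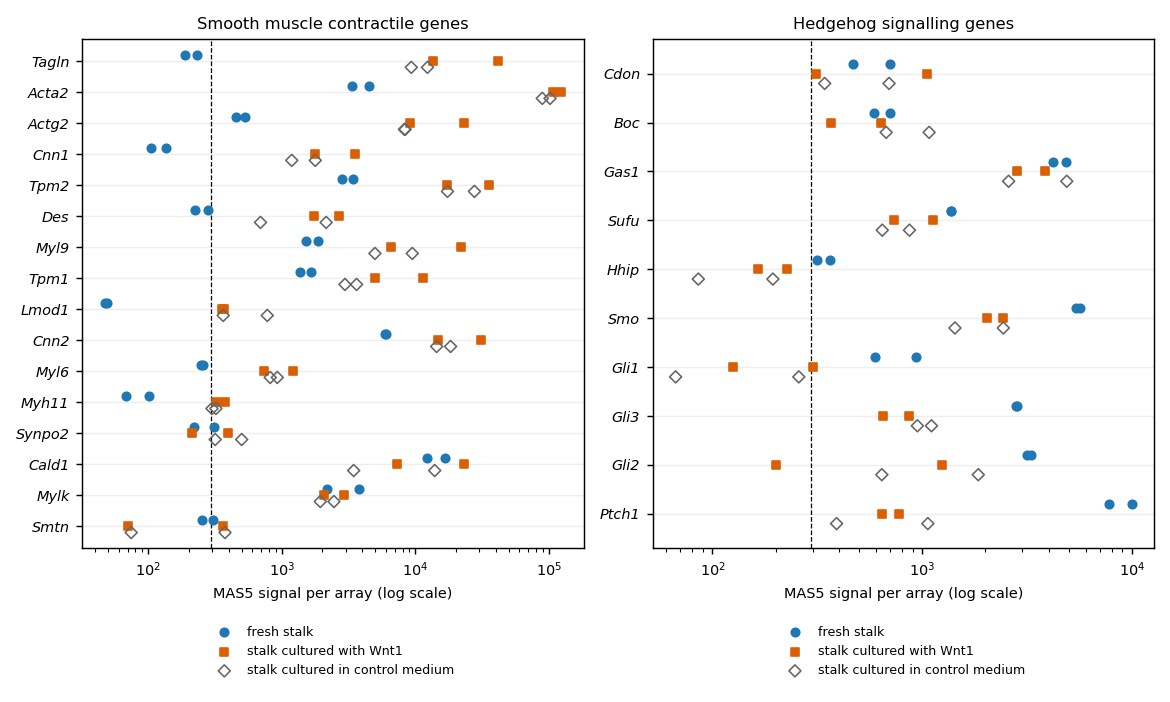
MAS5 signal of every stalk array (x axis, log scale) for 16 smooth muscle contractile genes (left) and 10 hedgehog signalling genes (right), ordered by log2 fold change, with fresh stalk as circles, Wnt1 culture as squares, control culture as open diamonds and the highest of the 4 array medians, 295.3, as a dashed line. Of the muscle genes, 11 rose, from Tagln to Myl6, and of the hedgehog genes the 5 at the bottom fell.

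Transcription factors of lung mesenchyme fell in part. Of 22 tested, 0 rose and 6 fell, against 13.0% and 9.65% of all genes, with a median of -0.72. Tbx5 was at 4340 and 4020 in fresh stalk and 824 and 1011 in Wnt1 culture (-2.14 ± 0.32, adjusted p = 0.0043), and Tbx4, its neighbour in lung bud formation, fell by 1.77 (adjusted p = 0.0095). Foxf1, a target of hedgehog in visceral mesenchyme, was at 1441 and 1678 against 401 and 482 (-1.73 ± 0.36, adjusted p = 0.015). Tbx2, Tbx3 and Meis1 fell by 1.57, 1.41 and 1.40, although the mean of the Meis1 probe sets was 0.07. The Tcf21 change of -0.81 did not pass (adjusted p = 0.085). The falls numbered 1 under quantile normalization and 0 with either fresh replicate left out.

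Of 20 Bmp and Tgf-beta genes, 3 rose and 5 fell, where 13.0% of all genes rose and 9.65% fell, so the rises are near the share over all genes. The secreted Tgf-beta target Tgfbi was at 7578 and 8076 in fresh stalk and 1127 and 1048 in Wnt1 culture (-2.80 ± 0.32, adjusted p = 0.0012). Bmp5, a ligand, was at 2125 and 2395 against 166 and 534 (-2.72 ± 0.47), and the receptors Bmpr2, Tgfbr1 and Bmpr1a fell by 2.0, 1.89 and 1.54. Other probe sets, dimmer in fresh stalk, were at -0.74 and 0.13 for Bmp5 and -0.10 and 0.90 for Bmpr2. Grem1, a secreted Bmp antagonist, rose from 85.7 and 123 to 712 and 1026 (2.61 ± 0.50, adjusted p = 0.011), and the ligand Bmp2 and its target Id1 rose by 2.23 and 1.26.

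Of 16 Fgf genes, 0 rose and 2 fell, namely Dusp6 (1593 and 2144 against 857 and 316, -1.73 ± 0.45) and Spred1 (-1.23), both feedback inhibitors of the Erk cascade. Among all genes 13.0% rose and 9.65% fell, so the Fgf falls are near the share over all genes. Fgf10, the mesenchymal ligand of branching, was at 166 and 134 in fresh stalk and 953 and 271 in Wnt1 culture, and did not pass (1.54 ± 0.61, adjusted p = 0.081). Of 11 retinoic acid genes, 0 rose and 0 fell, with changes between -0.79 and 1.34. The largest were Aldh1a1 at 1.34 ± 0.59 and Stra6 at 0.89 ± 0.60. The Fgf falls numbered 0 under quantile normalization, and likewise with either fresh replicate left out. The Bmp and Tgf-beta calls numbered 0 rises and 2 falls under quantile normalization and without fresh replicate 1, and 0 and 1 without fresh replicate 2.

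Genes of cell division were lower after culture with Wnt1. Of 21 mitosis genes, 0 rose and 12 fell, against 13.0% and 9.65% of all genes. All 21 changes were negative, with a median of -1.37. Mki67, the nuclear antigen of cycling cells, was at 6997 and 6793 in fresh stalk, 1127 and 1770 in Wnt1 culture and 1481 and 4944 in the control culture (-2.25 ± 0.35, adjusted p = 0.0044). Anln, a contractile ring protein, was at 2927 and 4186 against 574 and 811 (-2.29 ± 0.35, adjusted p = 0.0044). Bub1 and Aurkb, kinases of the spindle checkpoint and of chromosome segregation, fell by 2.02 and 2.13. Cdc20 (-0.29) and Birc5 (-0.47) did not pass.

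Of 23 DNA replication genes, 0 rose and 7 fell, against 13.0% and 9.65% of all genes, with a median of -0.82. Pole, the catalytic subunit of DNA polymerase epsilon, was at 2215 and 1268 in fresh stalk and 181 and 311 in Wnt1 culture (-2.61 ± 0.44, adjusted p = 0.0067). The primase gene Prim1 fell by 1.55 and the helicase subunit Mcm3 by 1.36, while Pcna (-0.65) and Rrm2 (-0.26) did not pass. Wnt1 replicate 2 was above replicate 1 for most of these genes, and the list's median was -1.09 for replicate 1 and -0.51 for replicate 2.

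Regulators of the G1 phase showed 1 rise and 6 falls among 14, against 13.0% and 9.65% of all genes. Ccnd2, a D-type cyclin, was at 11410 and 11630 in fresh stalk and 3774 and 2913 in Wnt1 culture (-1.78 ± 0.37, adjusted p = 0.014). Ccnd1, Myc, Mycn, Cdk6 and Rbl1 fell too, although the mean of the Mycn probe sets was 0.19. Cdkn2b, an inhibitor of the cyclin D kinases, rose from 47.0 and 6.31 to 1131 and 550 (3.63 ± 0.60, adjusted p = 0.0062). Cdkn1a, the p21 inhibitor and a p53 target, rose from 236 and 301 to 1948 and 13080 (4.04 ± 0.65, adjusted p = 0.0056), with 1507 and 5369 in the control culture.

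The Cdkn1a values of the Wnt1 arrays lay far from each other, and both were above fresh stalk. Of 11 p53 targets, 2 rose, the other being Phlda3 (1.98), and 0 fell, with the rises near the 13.0% of all genes. Mdm2 was at 0.18. Under quantile normalization 4 mitosis genes and 1 replication gene fell. Without fresh replicate 1 the falls were 3 and 0, and without fresh replicate 2 they were 1 and 1. The G1 genes then had 1 rise and 0 falls without fresh replicate 1, as under quantile normalization, and 0 and 0 without fresh replicate 2.

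Matrix genes were divided. Of 23 interstitial and elastic matrix genes, 6 rose and 4 fell, against 13.0% and 9.65% of all genes, with a median of 0.02. Vcan, a large proteoglycan of embryonic tissue, was at 5885 and 7750 in fresh stalk and 543 and 657 in Wnt1 culture (-3.40 ± 0.33, adjusted p = 0.00044). The other Vcan probe sets were at -2.99, -3.20, 2.09 and 1.52, the last 2 of them dim in fresh stalk. Mfap4, Fbln1 and Col14a1 fell by 2.03, 1.96 and 1.65. Tnc, the glycoprotein tenascin C of healing tissue, rose from 84.7 and 54.2 to 674 and 514 (2.49 ± 0.53, adjusted p = 0.015), and Col12a1, Postn, Fbln5 and Eln rose by 2.64, 1.79, 1.76 and 1.5. The fibrillar collagen gene Col1a1 rose by 1.0 (adjusted p = 0.049), but its change was -0.27 with each array scaled to the same median and it passed in 6 of 21 settings, while Col1a2 (-0.66) and Col3a1 (-0.42) did not pass.

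Of 12 basement membrane genes, 2 fell, Lama4 (902 and 786 against 70.1 and 31.2, -3.26 ± 0.53) and Nid1 (-1.49), and 0 rose. Among all genes 13.0% rose and 9.65% fell. Of 14 matrix proteases and inhibitors, 5 rose and 1 fell. The rises were in the inhibitors Timp2 (1771 and 1446 against 4158 and 8543, 1.87 ± 0.39) and Timp1 (1.34), the proteases Mmp3 (2.42) and Adamts5 (1.58) and the urokinase receptor Plaur (1.57). The fall was in Plat, the tissue plasminogen activator (-1.54), whose other probe set, dimmer in fresh stalk, was at 1.28. The Timp2 rise is that of 1 probe set: 2 others of similar signal in fresh stalk were at 0.05 (1051 and 2068 against 1522 and 1532) and -0.14 (1680 and 2332 against 1675 and 1911). The remaining 2, dimmer, were at -0.09 and 1.45. The basement membrane list had 1 fall under quantile normalization and 0 with either fresh replicate left out, and the protease list 1 rise and 0 calls in turn. Under quantile normalization Vcan was the only one of the 10 interstitial matrix calls left, likewise with either fresh replicate left out.

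Stress programmes were mostly below the threshold. Among all genes 13.0% rose and 9.65% fell, and the counts of both lists here were near or below those shares. Of 14 heat shock and chaperone genes 1 rose, Hspb1, a small heat shock protein that binds actin, from 387 and 826 to 6539 and 18960 (4.19 ± 0.49, adjusted p = 0.0013). Hspa1a, the inducible Hsp70, was at 498 and 14840 in fresh stalk and 676 and 2636 in Wnt1 culture (-1.03). Of 18 immediate early genes, 2 rose, Ier3 (1.91) and Jund (1.16), and 0 fell. The Jund change was -0.13 with each array scaled to the same median, and it passed in 8 of 21 settings. Fos was at 247 and 7194 in fresh stalk and 8129 and 2097 in Wnt1 culture. Fresh replicate 2 was thus high in Fos and Hspa1a where fresh replicate 1 was low, and the groups overlapped.

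Of 12 genes of the metallothionein and oxidative stress list, 2 rose, 1 fell and 9 did not pass. These counts are near the 13.0% and 9.65% of all genes. The rises were in metallothioneins, which bind zinc and copper: Mt1 from 586 and 262 to 1723 and 2475 (2.26 ± 0.42, adjusted p = 0.0099) and Mt2 by 1.89. The zinc exporter gene Slc30a1 fell by 2.25, but its other probe set was at -0.10. Of the 17 genes of the unfolded protein and amino acid response, 2 rose and 1 fell, likewise near the shares over all genes. Chac1, which breaks down glutathione, went from 88.9 and 92.3 to 882 and 1538 (3.17 ± 0.49, adjusted p = 0.0045), Ddit3, the Chop factor, rose by 1.84, and the endoplasmic reticulum chaperone gene Dnajb9 fell by 1.18. The other Ddit3 probe set, dimmer in fresh stalk, was at 0.10.

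Of 15 hypoxia genes, 1 rose, Adm (the vasodilator adrenomedullin, 147 and 204 against 1330 and 1150, 2.56 ± 0.43), and 1 fell, Kdm3a (-1.47). Vegfa (-1.71) and Slc2a1 (-0.06) did not pass. The hypoxia motif ACGTG was in 10 of 13 promoters matched, searched on both strands, and in 19.6% of all RefSeq promoters. Of 12 glycolysis genes, 2 fell (Pfkl by 1.52 and Hk2 by 1.17) and 0 rose. Of 15 cholesterol genes 1 rose (Srebf2, 1.60) and 2 fell (Sqle and Msmo1, by 1.17 and 1.19). The other probe sets of Srebf2 and Msmo1 were at -0.45 and 0.96. Among all genes 13.0% rose and 9.65% fell. The hypoxia and cholesterol counts and the glycolysis falls are near those shares. With either fresh replicate left out, the hypoxia, glycolysis and cholesterol lists had 0 calls. Without fresh replicate 1 the heat shock list had 1 rise and 2 falls and the immediate early list 0 rises and 1 fall. Without fresh replicate 2 the metallothionein list had 0 calls. The unfolded protein and amino acid list had 1 rise and 0 falls with either left out.

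Markers of other cell types moved between the groups, where 13.0% of all genes rose and 9.65% fell. Macrophage markers were higher in Wnt1 culture: of 12 tested, 6 rose and 0 fell, and their summed signal was 6283 and 6698 in fresh stalk and 15670 and 19420 in Wnt1 culture. C1qb, a complement component made by macrophages, was at 628 and 493 against 3626 and 2978 (2.47 ± 0.34, adjusted p = 0.0030). Lyz2, lysozyme, was at 248 and 161 against 931 and 2845 (2.78 ± 0.52), and the adaptor gene Tyrobp rose by 2.58. Csf1r, the receptor that defines the lineage, did not pass (1751 and 1978 against 3676 and 3415, 0.91 ± 0.32, adjusted p = 0.058). In the control culture the summed signal was 16750 and 30410. The rises numbered 2 under quantile normalization and 3 with either fresh replicate left out, and with each array scaled to the same median 1 rose and 1 fell.

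Against 13.0% of all genes, 5 of 7 tested genes of activated phagocytes rose. Beside Lgals3 and Clec4d they were Gpnmb, a glycoprotein of lipid-laden macrophages (59.1 and 6.15 against 1047 and 954, 3.86 ± 0.56), Arg1 (2.12) and the scavenger receptor gene Cd36 (1.93). Arg1 was at 7.94 and 24.5 against 146 and 311, with the Wnt1 arrays not both above the highest array median. Lgals3, Clec4d, Gpnmb and Arg1 passed the filter on dim signal only through the Wnt1 arrays, so the count is in part set by the filter. Of 12 chemokine and cytokine genes, 7 rose and 0 fell, against 13.0% and 9.65% of all genes. Ccl9 went from 92.0 and 81.7 to 980 and 1738 (3.37 ± 0.49, adjusted p = 0.0039), and Cxcl12, the ligand of Cxcr4, from 553 and 754 to 2336 and 5004 (2.33 ± 0.40, adjusted p = 0.0076). The other Cxcl12 probe set, brighter in fresh stalk, was at 1839 and 1141 against 1078 and 2713 (0.24) and overlapped between groups. Cxcl1, Lif, Il11, Cxcl14 and Csf1 rose by 1.91, 1.95, 2.15, 2.91 and 1.46. Ccl9, Il11 and Cxcl14 passed the filter on dim signal only through the Wnt1 arrays, so this count too is in part set by it. In Il11 and Cxcl14 the Wnt1 arrays were not both above the highest array median. Both lists had 2 rises under quantile normalization. Chemokine rises numbered 1 without fresh replicate 1 and 2 without fresh replicate 2, and phagocyte rises 3 with either left out. The part of macrophage number in these genes was not tested.

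Endothelial markers were lower: of 14 tested, 0 rose and 8 fell, against 13.0% and 9.65% of all genes, with a median of -1.84. Their summed signal was 14600 and 17200 in fresh stalk, 4365 and 2518 in Wnt1 culture and 5426 and 4794 in the control culture. The transcription factor gene Sox17 was at 1611 and 2022 against 121 and 78.9 (-3.70 ± 0.44, adjusted p = 0.0014), but its change was -0.15 on the probe set used when those ending in _x_at and _s_at were left out. Cldn5, the tight junction protein of vessels, was at 2429 and 2348 against 241 and 149 (-3.37 ± 0.39, adjusted p = 0.0012), and Kdr, the main Vegf receptor, was at 2480 and 3198 against 586 and 337 (-2.55 ± 0.37, adjusted p = 0.0039).

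Both culture groups thus had less signal of vessel genes than fresh stalk, and Aplnr and Cd34 of the largest falls moved with them. Flt1 (0.34), Tek (-1.28) and Cdh5 (-0.91) did not pass. The falls numbered 5 under quantile normalization, 3 without fresh replicate 1 and 2 without fresh replicate 2. Of 6 pericyte markers, Pdgfrb (9816 and 8589 against 1804 and 3951, -1.76 ± 0.42) and Rgs5 (-1.43) fell and 0 rose, with 0 calls when either fresh replicate was left out.

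Hba-x, an embryonic alpha-type globin, was at 22980 and 15730 in fresh stalk and 2513 and 6762 in Wnt1 culture (-2.19 ± 0.51, adjusted p = 0.019), and the red cell anion exchanger gene Slc4a1 fell by 1.31. Hbb-y, an embryonic beta-type globin, was at 50040 and 27710 against 225900 and 119700 (2.14). The other beta-type globin tested, Hbb-bh1, was at 38780 and 18200 against 4314 and 12870 (-1.83). Hbb-y thus stood higher in Wnt1 culture and the other 2 globins lower, but neither beta-type gene passed the threshold. Falls were called in 9.65% of all genes. Of 8 erythroid markers, 2 fell and 0 rose, with 0 calls when either fresh replicate was left out.

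The remaining cell types had few calls, to be set against 13.0% of all genes rising and 9.65% falling. Of 10 epithelial markers 1 rose and 1 fell. Epcam, the surface marker of epithelium, was at 154 and 136 against 825 and 838 (2.22 ± 0.47, adjusted p = 0.015), but a probe set without the _x_at ending had -0.30. Sox9, which also marks cartilage, fell by 2.03, but with 1 of its fresh arrays under the highest array median, and its other probe set, dimmer in fresh stalk, was at 1.60. The epithelial list had 0 calls under quantile normalization. Of 9 mesothelial markers, Krt19 (2.28) and Upk1b (1.55) rose and 0 fell, while the other Upk1b probe sets were at 0.28, 0.43 and 0.70. Of 9 cartilage markers 2 rose, Acan and Cnmd, both dim, and 2 fell, Hapln1 (502 and 821 against 82.4 and 32.3, -2.81 ± 0.56) and Sox9. The other Hapln1 probe sets, dimmer in fresh stalk, were at 0.22, 0.08 and -1.38. Of 9 neural markers, L1cam (1.99), Elavl3 (1.94) and Elavl4 (1.70) rose, with a summed signal for the list of 828 and 497 in fresh stalk and 4528 and 1758 in Wnt1 culture. These genes are dim: 3 of the 9 were below the highest array median on all 4 arrays, Elavl3 was above it on 1 array, and the other Elavl4 probe sets were at 0.42 and 0.77. The array medians, 95.2 and 76.2 against 295.3 and 149, moved with that sum, and their part in it was not tested. The neural, mesothelial and cartilage lists had 0, 1 and 1 calls under quantile normalization and 0 with either fresh replicate left out.

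**Figure D5:**
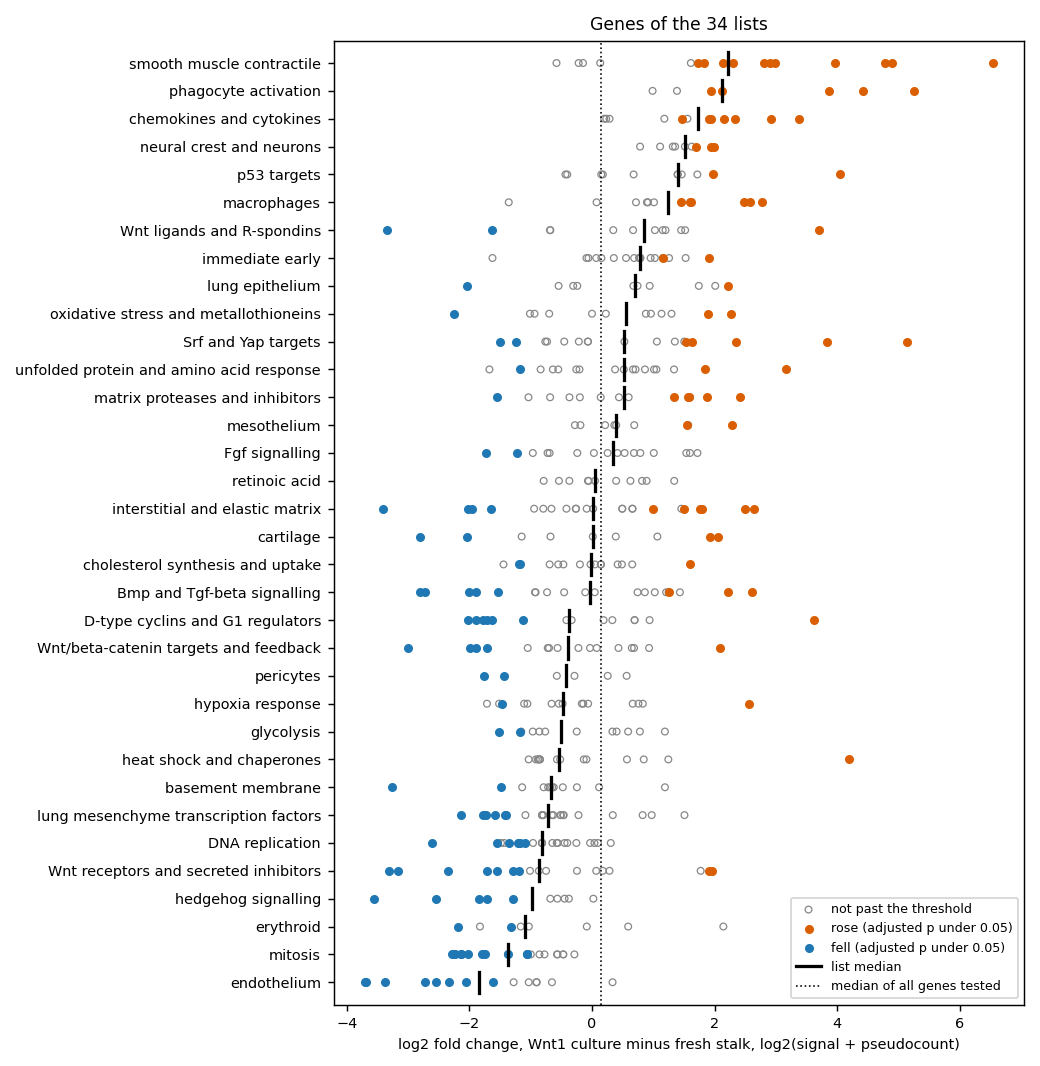
Log2 fold change of each gene (x axis, Wnt1 culture minus fresh stalk) in the 34 lists (y axis), ordered by list median (black bar), with genes that rose in orange, genes that fell in blue and others as open circles, and the median of all genes tested, 0.15, as a dotted line. Smooth muscle genes are at the top with a median of 2.22, and endothelial and mitosis genes are at the bottom with medians of -1.84 and -1.37.

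The control culture addressed which of these genes differed between culture with and without Wnt1. Over the 6 stalk arrays, limma called 0 of the 13741 genes between Wnt1 and control culture (0% of genes tested, smallest adjusted p = 0.93). An unadjusted p under 0.05 was found in 719 genes. That is about the count this threshold gives when no gene differs, so the 719 mark no set of genes responding to Wnt1. A p that misses the threshold does not show that the groups are alike. Among the genes named above, the Wnt1 minus control change was 1.14 ± 0.49 for Tagln and 1.18 for Anxa1, 1.30 for Dkk2, 2.32 for Tnfrsf12a, -2.95 for Adamts20, -2.46 for Sox9 and 0.12 for Ptch1. None of these passed. Without control replicate 2 the comparison called 8 genes, all higher with Wnt1 (smallest adjusted p = 0.043).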

How the data were processed

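Array signals were analysed for 2 fresh stalk and 2 Wnt1-cultured stalk samples, with 2 control-cultured stalk samples beside them. RNA was amplified in 2 cycles, per the labels' protocols. The deposited values are linear intensities. Per the submitters' processing notes, the authors used Affymetrix Expression Console and MAS5; no version is given in the sources used here, and detection calls were not used. On every array the 2% trimmed mean was 500, so dim signal scales up where bright signal is scarce.

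Of 45101 probe sets, 64 controls were left out, and 34945 have 1 gene symbol in the platform annotation, 932 several and 9160 none. Those with 1 symbol were kept where at least 2 of the 4 arrays exceeded 96.4, the 40th percentile over all 8 arrays. The probe set of the highest mean stood for its gene, leaving 13741 genes. Values were taken as log2(signal + 44), 44 being the 25th percentile. The groups were compared with limma 3.58.1 in R 4.3.3 (lmFit, eBayes with trend, no covariates, two-sided), with Benjamini-Hochberg adjustment over all genes and a threshold of 0.05. The script was tested on simulated data. Having 2 arrays per group limits all precision. Figures were drawn with matplotlib 3.10.9.

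The 34 lists hold 531 genes. Lists, comparison and rules were chosen with earlier results of these data known. Named genes are, per direction, the 12 largest called changes whose groups do not overlap and whose higher group lies above the highest array median on both arrays, without predicted or clone-named genes. From each list come up to 5 called members by smallest p, or else the 2 largest changes. Some genes were always named (Axin2, Lef1, Tcf7, Wnt2, Wnt5a, Rspo2, Ptch1, Gli1, Acta2, Tagln, Cnn1, Myh11, Fgf10, Tbx4, Tbx5, Mki67, Tcf21, Foxf1, Col1a1, Epcam, Pecam1, Csf1r). Further list members, other probe sets and Eif2s3y, Nkx2-1, Cdh1 and the Wnt1 transcript were named after their values were seen. Alternatives changed the pseudocount, filter, scaling, spread model, probe sets, arrays, replicate block and threshold.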

Additional observations from a re-analysis of the deposited data

How the results depend on the processing

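The count of 3114 called genes stayed within 1.5 times under other pseudocounts, a stricter filter, other spread models, other choices of probe set and all 8 arrays in the fit. It was 1279 without the filter on dim probe sets, 318 under quantile normalization, 5016 with each array scaled to the same median and 270 at an adjusted p under 0.01. It was 0 with a signal floor at 295.3, where 1921 genes were tied on all 4 arrays and the spread was estimated anew. Without limma's adjustment 5665 genes had a p under 0.05 on the deposited scale. With only genes above that floor on at least 2 arrays, chosen after the data were seen, 1847 of 9125 were called, and 502 when the floor was added. Leaving out 1 array gave 112 to 7982 calls. Wnt1 against control culture gave 0 to 8 calls on leaving out 1 array, and 0 under every other alternative run.

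The replicate numbers were not shown to pair the samples: deviations of samples with the same number correlated at 0.15 over 2 pairs. With the replicate number as a block, 4556 genes were called, and 132 of the 133 named calls were kept. The block gave 0 calls between Wnt1 and control culture.

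Directions turned for few named genes, and the cause was not tested. With each array scaled to the same median, Stra6 was at -0.19, Jund at -0.13, Col1a1 at -0.27 and Csf1r at -0.36. Averaging all probe sets per gene put Rspo2 at 0.18, Meis1 at 0.07, Mycn at 0.19 and Tcf21 at 0.26. Without probe sets ending in _x_at and _s_at, Tbc1d9b was at -1.48 and Epcam at -0.30. Of 133 named calls, 59 were kept under quantile normalization, 48 and 43 without fresh replicate 1 and 2, and 133 with either Wnt1 replicate left out, where the spread came from the fresh pair alone. Signal over background limits dim genes: 1056 of the 1788 higher genes did not have both Wnt1 arrays above the highest array median.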

Other observations

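Calcium-binding families were described after their values were seen, because S100a6 and Anxa1 were among the largest rises. Of 10 S100 genes tested, 8 rose and 0 fell in Wnt1 culture against fresh stalk, with a median log2 fold change of 2.26, where 13.0% of all genes rose. The choice of family makes this a description only. Among the rises, S100a3, S100a4, S100a8 and S100a9 passed the filter on dim signal only through the Wnt1 arrays, so the count is in part set by the filter. S100a10, the partner of annexin A2, was at 2578 and 1975 in fresh stalk and 11160 and 41080 in Wnt1 culture (3.22, adjusted p = 0.0067 by limma), and S100a4 at 44.1 and 60.5 against 447 and 710 (2.67, adjusted p = 0.014). The rises of S100a3, S100a8 and S100a9 rest on Wnt1 values that were not both above the highest array median, and S100a16 was at -1.24 (adjusted p = 0.051). Of 7 annexins, Anxa1, Anxa3 and Anxa4 rose, by 5.03, 1.93 and 1.49, and 0 fell. Anxa2 (1.35, adjusted p = 0.057) and Anxa5 (1.16, adjusted p = 0.063) did not pass, and Anxa6 was at 0.31.

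The keratin genes Krt8 and Krt18 of simple epithelium had 1 high array. Krt8 was at 486 and 606 in fresh stalk and 827 and 4384 in Wnt1 culture, and Krt18 at 754 and 496 against 961 and 6905. Wnt1 replicate 2 stood apart in both, and neither passed the threshold (1.74 and 2.01).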
